A study of Mus musculus with 20 samples.

Results

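Notch signalling was examined at transcript level in dendritic cells cultured from mouse bone marrow (BMDCs), through 9 genes chosen by symbol from the 24421 genes of the count table. They were the ligands Jag1, Jag2 and Dll4, the receptors Notch1, Notch2 and Notch4, the DNA-binding factor Rbpj, its co-activator Maml1 and the target gene Hes1. The marrow came from 5 animals, named A to E, and was cultured for 8 days in GM-CSF (40 ng/mL). Each culture was split and given ovalbumin (Ova) or ovalbumin in IgG immune complexes (IC) for 4 hours, with the solvent DMSO or with I-BET151 (iBET) at 3.3 μM, an inhibitor of the BET bromodomain proteins that read acetylated histones. This gave 4 groups, named DMSO Ova and DMSO IC for the solvent and iBET Ova and iBET IC for the inhibitor, with 1 library per mouse in each (n = 5 per group, 20 libraries). The labels give no strain, genotype or age for these mice, and the methods list wild-type C57BL/6 mice of both sexes among those used. The sample labels describe iBET as given together with the stimulus, whereas the methods place it before the stimulus. For the solvent groups the labels state 5% DMSO, but they are silent on it for iBET, so whether the solvent was matched cannot be read from them.

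Notch receptors are single-pass proteins that are activated by Jagged or Delta-like ligands on a neighbouring cell. Ligand binding allows a protease and then the γ-secretase complex to cut the receptor, and the freed intracellular part binds RBPJ in the nucleus with a Mastermind-like co-activator and turns on genes such as Hes1. Without a cut receptor, RBPJ can sit on the same genes with co-repressors. In dendritic cells, Notch2 is known for its role in the development of a subset of conventional cells in the spleen and gut, and Jagged and Delta-like ligands on antigen-presenting cells are known to signal to T cells.

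Total counts ranged from 16447491 to 29245150 per library (median 21764663), and 12465 genes passed the filter on low counts and were tested. Levels are given as CPM, which are counts scaled to the TMM-normalised size of the library. All 8 dendritic cell markers passed the filter, with Itgax at 1718 to 2725 CPM, Cd74 at 1859 to 5368 CPM and Zbtb46 at 11.9 to 41.8 CPM, whereas Flt3 was at 0.121 to 4.94 CPM. All 8 macrophage or monocyte markers also passed, with Csf1r at 485 to 1235 CPM, so the libraries held transcripts of both kinds. Of the 6 B cell, 5 T or NK cell and 8 stromal markers in the table, none passed. Of the other lists, 5 of 7 neutrophil, 4 of 6 megakaryocyte or erythroid and 2 of 6 mast cell or basophil markers passed. Among them, Pf4 was at 34.2 to 108 CPM. Their median sums in DMSO Ova and iBET Ova were 20.6 and 18.3 CPM for neutrophil markers and 71.1 and 75.7 CPM for megakaryocyte or erythroid markers. For mast cell or basophil markers they were 9.80 and 4.78 CPM. The libraries of mice A and B lay apart from those of mice C, D and E on the second principal component, and since the labels name no such sets, values within each are given beside the results. These are bulk libraries, in which a change in the number of cells of a type and a change in RNA per cell cannot be told apart.

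RefSeq promoter windows (GRCm38.p6, 250 bases before to 50 after the start site) were matched by symbol for 8 of the 9 genes, all except Hes1. The 3 shown belong to the genes with the clearest differences in the comparisons below, and they are printed 5′ to 3′ on the strand of the gene. Capitals mark matches, on either strand, to the RBPJ core TGGGAA or to the AP-1 site TGANTCA, a motif that reads as its own reverse complement.
Jag1 (chr2:137116471-137116770, minus strand): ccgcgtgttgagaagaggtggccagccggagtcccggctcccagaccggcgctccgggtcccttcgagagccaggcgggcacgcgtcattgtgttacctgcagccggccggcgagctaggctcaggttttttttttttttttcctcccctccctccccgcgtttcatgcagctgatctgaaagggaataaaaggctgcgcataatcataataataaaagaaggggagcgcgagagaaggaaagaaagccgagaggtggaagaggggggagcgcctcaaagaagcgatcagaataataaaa
Rbpj (chr5:53590096-53590395, plus strand): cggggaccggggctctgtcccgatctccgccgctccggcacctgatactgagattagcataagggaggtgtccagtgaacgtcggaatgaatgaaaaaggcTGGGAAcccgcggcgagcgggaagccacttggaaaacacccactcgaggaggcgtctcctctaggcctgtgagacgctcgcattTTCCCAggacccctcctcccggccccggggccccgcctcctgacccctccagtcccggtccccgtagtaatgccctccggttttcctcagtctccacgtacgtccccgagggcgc
Notch4 (chr17:34564045-34564344, plus strand): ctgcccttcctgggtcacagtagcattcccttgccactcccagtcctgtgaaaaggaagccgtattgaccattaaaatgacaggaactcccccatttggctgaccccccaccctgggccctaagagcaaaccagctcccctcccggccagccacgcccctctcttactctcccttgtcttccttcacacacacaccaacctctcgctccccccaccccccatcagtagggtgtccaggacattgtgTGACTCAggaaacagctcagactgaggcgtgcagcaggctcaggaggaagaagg

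The Rbpj window held the RBPJ core once on each strand, with first bases 149 and 65 bases before the start site. A second RefSeq start of Rbpj had a window that overlaps this one and held the nearer match. Both starts lie inside the annotated gene, which begins at 53466152, so its most upstream start was not scanned. The same holds for Notch1, whose window (chr2:26503773-26504072, minus strand) lies inside a gene that reaches 26516663. The core occurred in 25.6% of the 32851 promoter windows of the table. The Notch4 window held the AP-1 site with its first base 4 bases before the start, and 7.81% of all windows had one. The Jag1 window held neither motif, nor a match to the NF-κB motif, which 5.89% of windows held. Among the other members, the Notch2 window had an NF-κB match, and none of the 3 motifs was found for Jag2, Dll4, Notch1 or Maml1. The Jag1 window was 55.7% G or C, against 64.7% for Rbpj, 58.3% for Notch4 and a median of 52.7% over all windows.

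The 9 genes formed a well-counted and a nearly silent set. Per kilobase of annotated exon, Notch2 had the highest mean level over the 20 libraries (58.2 CPM per kb), followed by Rbpj (34.5), Notch1 (27.0), Maml1 (8.37) and Jag1 (6.93). Jag2 (0.122), Notch4 (0.0485), Dll4 (0.0308) and Hes1 (0.0300) followed far below on the same scale. Their library counts were 1 to 44 for Jag2, 1 to 17 for Notch4, 0 to 7 for Dll4 and 0 to 9 for Hes1, against at least 376 for each of the other 5 genes. In the DMSO Ova group, Notch2 stood at 65.9 ± 7.78 CPM per kb (SD, n = 5), Rbpj at 47.7 ± 8.75, Notch1 at 32.1 ± 5.86, Maml1 at 9.02 ± 1.11 and Jag1 at 4.59 ± 1.70. The order changed with the group: in iBET Ova, Rbpj (22.3 ± 2.08 CPM per kb) was below Notch1 (29.2 ± 5.29), and in iBET IC the values of Rbpj (21.2 ± 2.60) and Notch1 (21.5 ± 3.17) differed by less than their spread. In DMSO IC, Jag1 (9.33 ± 2.56 CPM per kb) and Maml1 (8.40 ± 0.660) likewise differed by less than their spread. The place of Rbpj depended on the length used, since on its longest transcript it reached 80.1 CPM per kb and stood first.

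**Figure D1:**
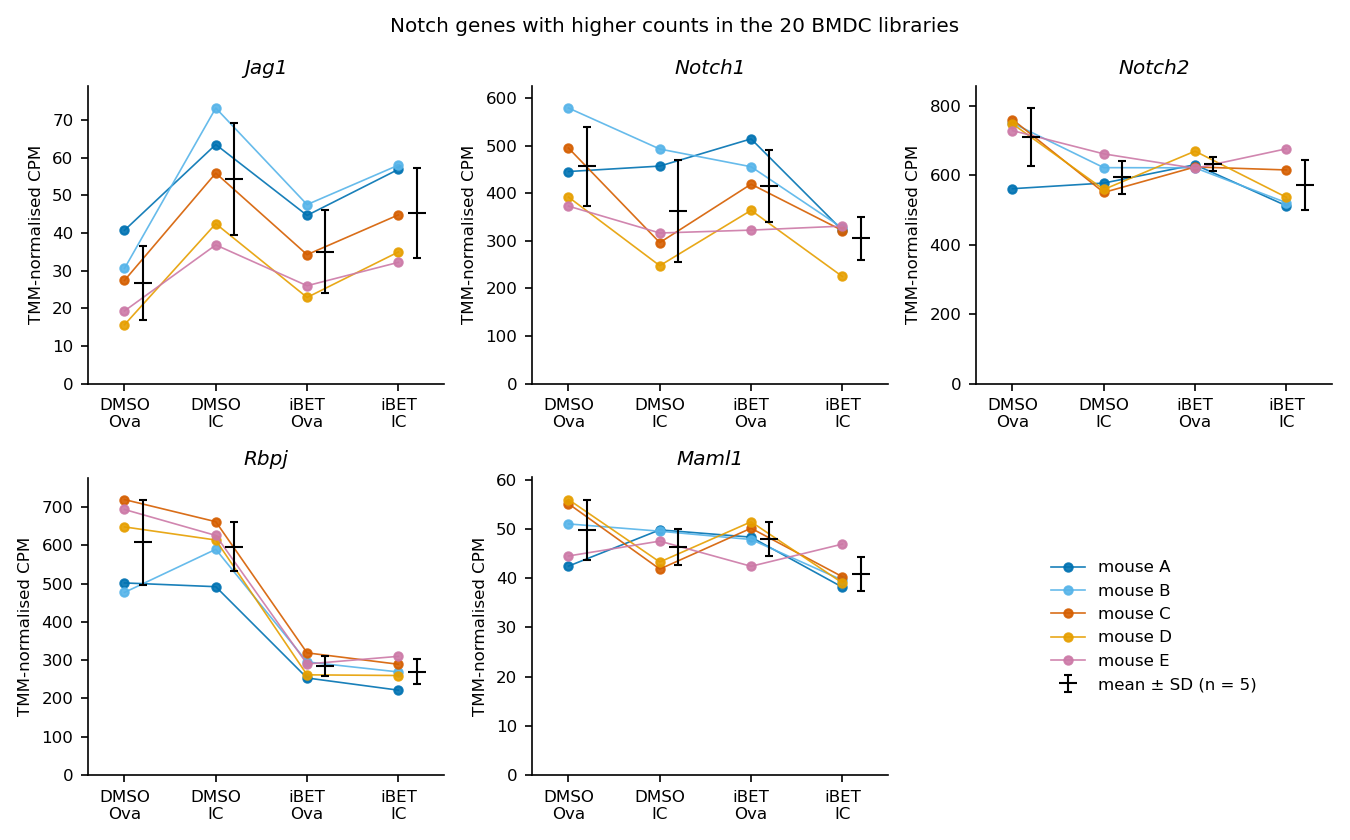
TMM-normalised CPM (y axis, linear, from 0) of Jag1, Notch1, Notch2, Rbpj and Maml1 in each of the 20 libraries, by group on the x axis. Points are libraries, lines join the libraries of one mouse, and black bars are the group mean ± SD (n = 5). Rbpj was at 477 to 719 CPM in the DMSO libraries and at 222 to 319 CPM in the iBET libraries.

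The first question was what iBET did to these genes, with each stimulus taken separately. Rbpj fell to 0.467 of its DMSO level with Ova and to 0.453 with IC, Notch4 rose from a very low level, and the other tested members did not pass the threshold in the fit with the 4 groups as the only factor. In that fit, 2 of the 7 tested members passed an edgeR adjusted p of 0.05 with Ova, against 56.6% of all tested genes, and 2 of 7 with IC, against 56.1%. In each case 1 of the 2 was Notch4, which passed the filter on low counts through the iBET libraries, and without it 1 of 6 was called. The share of members called did not exceed the background with or without Notch4. With the mouse added as a block, which uses the fact that each animal gave a library to every group, 4 of 7 were called with Ova (background 68.7%) and 3 of 7 with IC (background 68%). The comparisons share libraries, since the DMSO Ova group serves both the iBET contrast with Ova and the IC contrast with DMSO, and likewise for the other groups.

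Rbpj (chromosome 5, 53466152 to 53657362, GRCm38, plus strand) encodes the factor through which all 4 mammalian Notch receptors reach DNA. In the DMSO Ova group it was at 502, 477, 719, 648 and 693 CPM in mice A to E, and in the iBET Ova group at 253, 295, 319, 262 and 290.0 CPM. In the DMSO IC group it was at 492, 589, 662, 614 and 626 CPM, and in the iBET IC group at 222, 269, 289, 259.9 and 309.9 CPM. Every iBET library was below every DMSO library, and mouse C or E had the highest value in each group. The means fell from 608 ± 112 to 284 ± 26.6 CPM with Ova, a fold of 0.467 (log2 fold change -1.10, SE 0.12, edgeR adjusted p = 1.68e-07). With IC they fell from 596 ± 64.0 to 270.0 ± 33.2 CPM, a fold of 0.453 (log2 fold change -1.14, SE 0.12, edgeR adjusted p = 9.62e-08). Rbpj was lower in 5 of 5 mice with each stimulus. With Ova the log2 fold change was -0.84 in mice A and B alone and -1.20 in mice C, D and E alone, and with IC it was -1.12 in both sets.

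The effect of iBET on Rbpj with IC minus that with Ova was -0.05 on the log2 scale (SE 0.17, edgeR adjusted p = 1.00), lower in 3 of 5 mice. IC itself left Rbpj with a log2 difference of -0.03 (SE 0.12, edgeR adjusted p = 0.908) with DMSO and -0.07 (SE 0.12, edgeR adjusted p = 0.760) with iBET. Neither passed the threshold, and the groups overlapped.

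The macrophage or monocyte marker transcripts, taken as a sum, moved in the same direction as Rbpj. The summed level of the 8 markers ranged from 1271 to 1851 CPM in DMSO Ova and from 800 to 1136 CPM in iBET Ova. In DMSO IC it ranged from 1362 to 1868 CPM and in iBET IC from 847 to 1273 CPM. None of these markers was at 0 in any library. Csf1r was the largest part of the sum, at 485 to 1235 CPM over the 20 libraries. Adgre1 was at 121 to 177 CPM, and the single markers were not compared between groups. The summed dendritic cell markers ranged from 4600 to 7442 CPM in DMSO Ova and from 4800 to 7680 CPM in iBET Ova, with overlapping groups. The part of the macrophage marker difference in the fall of Rbpj was not tested.

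The genes whose pattern over the 20 libraries was most like that of Rbpj were Tal1, Ints3 and Jade1. Tal1 encodes a basic helix-loop-helix factor of blood progenitors, Ints3 a subunit of the Integrator complex and Jade1 a subunit of a histone acetyltransferase complex. Likeness was the root mean square difference of log2 CPM after centring each gene on its own mean, which was 0.149 for Tal1, 0.152 for Ints3 and 0.158 for Jade1, against a median of 0.658 over all tested genes. Their log2 fold changes for iBET were -1.15 with Ova and -1.17 with IC for Tal1, -1.25 and -1.05 for Ints3, and -0.93 and -1.08 for Jade1.

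Notch4 (chromosome 17, 34564268 to 34588503, GRCm38, plus strand), a receptor best known from endothelium, had few counts throughout. In mice A to E the counts were 8, 8, 4, 7 and 1 in DMSO Ova and 11, 16, 12, 10 and 16 in iBET Ova. With IC they were 3, 4, 1, 2 and 6 in DMSO and 17, 13, 15, 10 and 6 in iBET. No DMSO library reached 10 counts, so the gene passed the filter on low counts through the iBET libraries, where it is higher, and it is not counted as support for a change in the family. Its mean was 0.252 ± 0.155 CPM in DMSO Ova and 0.626 ± 0.180 CPM in iBET Ova (log2 fold change 1.29, SE 0.38, edgeR adjusted p = 0.00663). With IC the means were 0.143 ± 0.0786 and 0.542 ± 0.168 CPM (log2 fold change 1.88, SE 0.42, edgeR adjusted p = 0.000731). It was higher with iBET in 5 of 5 mice under each stimulus. The groups overlapped with Ova, where the DMSO library of mouse B (0.474 CPM) was above the iBET libraries of mice A and D (0.444 and 0.450 CPM), and did not overlap with IC. With Ova, the log2 fold change in mice A and B alone was 0.75 and did not pass the threshold (edgeR adjusted p = 0.245), whereas in mice C, D and E alone it was 1.83 (edgeR adjusted p = 0.00872). With IC the values in the same sets were 1.70 (edgeR adjusted p = 0.0383) and 2.03 (edgeR adjusted p = 0.00796).

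Of the 8 endothelial markers, 4 passed the filter, and their sum was mostly Vwf, at 91.3 to 163 CPM. The defining genes Tek and Sox17 had at most 1 count in any library, Emcn at most 4 and Cdh5 at most 29. The summed endothelial level ranged from 119 to 182 CPM in DMSO Ova, from 98.0 to 154 CPM in iBET Ova, from 111 to 177 CPM in DMSO IC and from 102 to 152 CPM in iBET IC. Of the markers with lower levels, Pecam1 was at 4.23 to 6.46 CPM in DMSO Ova and at 1.49 to 2.93 CPM in iBET Ova, and at 5.04 to 7.44 CPM in DMSO IC and 2.89 to 4.09 CPM in iBET IC. The counts of Cdh5 summed over 5 libraries were 38 in DMSO Ova and 14 in iBET Ova, and 101 in DMSO IC and 16 in iBET IC. Kdr had medians of 4.00 and 1.26 CPM in DMSO Ova and iBET Ova and of 8.73 and 6.00 CPM in DMSO IC and iBET IC. Its libraries overlapped, at 2.07 to 13.1 CPM in DMSO Ova and 1.13 to 5.53 CPM in iBET Ova. With IC they were at 4.14 to 22.2 CPM in DMSO and 2.84 to 9.55 CPM in iBET. Vwf also overlapped, at 109 to 163 CPM in DMSO Ova and 94.0 to 145 CPM in iBET Ova. Egfl7 had at most 19 counts in a library and was not compared between groups. The part of endothelial transcripts in the Notch4 values was not tested. The patterns most like that of Notch4 were those of Kank2 (root mean square difference 0.362), Zfp963 (0.390) and Slc20a2 (0.397), against a median of 0.869 over all tested genes. Kank2 encodes an adhesion adaptor and Slc20a2 a phosphate transporter.

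**Figure D2:**
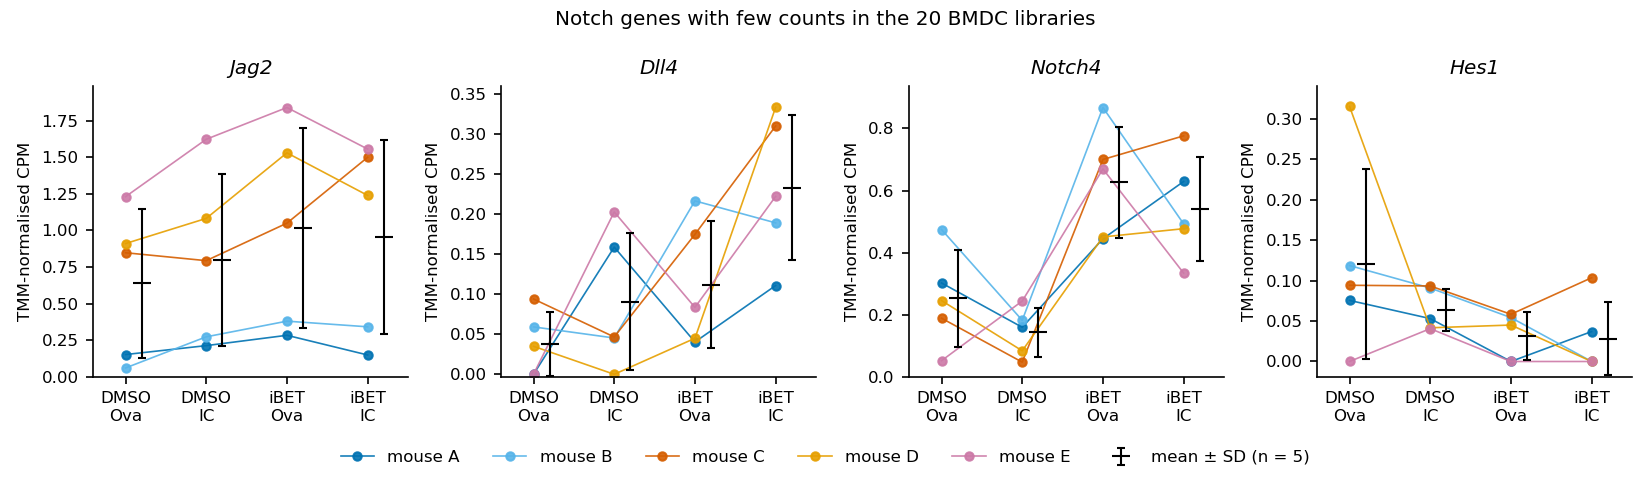
TMM-normalised CPM (y axis, linear) of Jag2, Dll4, Notch4 and Hes1, the 4 genes with few counts, in each of the 20 libraries, by group on the x axis. Points are libraries, lines join the libraries of one mouse, and black bars are the group mean ± SD (n = 5), which can reach below 0. Notch4 was at most at 0.474 CPM with DMSO and reached 0.867 CPM with iBET, and Jag2 was lower in mice A and B in every group.

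The second question was what IC did, with DMSO and with iBET. With DMSO, Jag1 rose 2.03-fold and Notch2 fell by a small amount, and these 2 of the 7 tested members were called by edgeR against 20.3% of all tested genes. With the mouse as a block, Notch1 was added to the lower genes, giving 3 of 7 (background 38.1%). With iBET, edgeR called 0 of 7 members (background 11.8%), with 2 of 7 at an unadjusted p under 0.05 and 0 of 7 by the Wald test of DESeq2. The blocked fit called 3 of 7 with iBET (background 28.9%), namely Jag1 as higher and Notch1 and Maml1 as lower.

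Jag1 (chromosome 2, 137081456 to 137116644, GRCm38, minus strand) encodes a Jagged ligand, a membrane protein that activates Notch receptors on adjacent cells. In mice A to E it was at 40.7, 30.6, 27.4, 15.6 and 19.3 CPM in DMSO Ova and at 63.5, 73.2, 55.9, 42.5 and 36.8 CPM in DMSO IC. In the iBET Ova group it was at 44.7, 47.5, 34.2, 22.9 and 26.0 CPM, and in the iBET IC group at 56.9, 58.0, 44.8, 35.0 and 32.2 CPM. The groups overlapped because the mice differed, with mice A and B high and mice D and E low in every group, but within each mouse the order of the 4 libraries was the same: DMSO Ova was lowest, then iBET Ova, then iBET IC, and DMSO IC was highest.

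With DMSO, IC raised Jag1 from 26.7 ± 9.88 to 54.4 ± 14.9 CPM, a fold of 2.03 (log2 fold change 1.02, SE 0.26, edgeR adjusted p = 0.0101, higher in 5 of 5 mice). Without mouse C the log2 fold change was 1.03 and the call was lost (edgeR adjusted p = 0.0641), and with the mouse as a block it was 1.05 (SE 0.08, edgeR adjusted p = 3.54e-08). The log2 fold change was 0.92 in mice A and B alone and 1.14 in mice C, D and E alone. With iBET, the means were 35.1 ± 11.0 CPM with Ova and 45.4 ± 12.0 CPM with IC, a log2 fold change of 0.38 (SE 0.26, edgeR adjusted p = 0.400). In the blocked fit this difference was 0.39 (SE 0.08) and passed the threshold (edgeR adjusted p = 0.00192, higher in 5 of 5 mice).

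The iBET contrast of Jag1 had opposite signs under the 2 stimuli. With Ova, Jag1 was higher with iBET in 5 of 5 mice, by 0.39 on the log2 scale (SE 0.26, edgeR adjusted p = 0.216), and by 0.40 in the blocked fit (SE 0.08, edgeR adjusted p = 0.000354). With IC it was lower with iBET in 5 of 5 mice, with a log2 fold change of -0.26 (SE 0.26, edgeR adjusted p = 0.414), or -0.26 in the blocked fit (SE 0.08, edgeR adjusted p = 0.00818). That last call was lost when mouse B (log2 fold change -0.22, adjusted p = 0.0574) or mouse C (-0.24, adjusted p = 0.0575) was left out of the blocked fit.

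The difference between these effects was tested as the interaction, in which edgeR called 0 of 7 members (0 also at an unadjusted p under 0.05 and 0 by the Wald test of DESeq2), against 0.0401% of all tested genes. With the mouse as a block 1 of 7 was called (background 0.818%), and it was Jag1. Its interaction was -0.65 on the log2 scale without the block (SE 0.37, edgeR adjusted p = 1.00) and -0.66 with it (SE 0.12, edgeR adjusted p = 0.0106). The per-mouse values of this difference in mice A to E were -0.29, -0.97, -0.64, -0.83 and -0.62. All 5 mice had a smaller IC difference with iBET than with DMSO. The blocked interaction did not pass without mouse B (-0.59, adjusted p = 0.100) or without mouse C (-0.67, adjusted p = 0.0973). Without a block it was -0.59 in mice A and B alone and -0.71 in mice C, D and E alone, and neither passed the threshold.

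**Figure D3:**
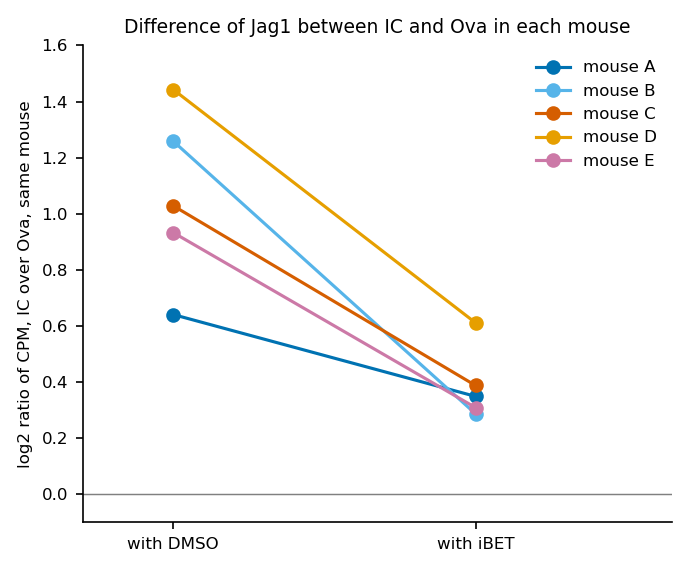
Log2 ratio of Jag1 CPM with IC over Ova (y axis) within each mouse, with DMSO and with iBET (x axis). Each line is 1 of the 5 mice, and all 5 lines descend, from 0.64 to 1.44 with DMSO to 0.29 to 0.61 with iBET.

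Jag2 (chromosome 12, 112907819 to 112929776, GRCm38, minus strand), the second Jagged ligand, was near the limit of detection and differed between mice more than between groups. In mice A and B it had 1 to 9 counts per library (0.0593 to 0.380 CPM), and in mice C, D and E 17 to 44 counts (0.793 to 1.84 CPM), without overlap. Group means were 0.640 ± 0.510 CPM in DMSO Ova, 0.797 ± 0.588 in DMSO IC, 1.02 ± 0.687 in iBET Ova and 0.957 ± 0.665 in iBET IC. Jag2 was higher with iBET than with DMSO in 5 of 5 mice with Ova, with a log2 fold change of 0.66 (SE 0.70, edgeR adjusted p = 0.439). The blocked fit gave 0.69 (SE 0.21) and passed the threshold (edgeR adjusted p = 0.00869). With IC it was higher in 3 of 5 mice (log2 fold change 0.18, SE 0.69, edgeR adjusted p = 0.838). The IC contrasts of Jag2 did not pass with or without the block.

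Dll4 (chromosome 2, 119325784 to 119335962, GRCm38, plus strand), a Delta-like ligand that activates Notch1 in the thymus, did not pass the filter on low counts. Its counts summed over the 5 libraries were 4 in DMSO Ova, 10 in DMSO IC, 11 in iBET Ova and 25 in iBET IC. The single libraries held 0 to 2, 0 to 5, 1 to 4 and 3 to 7 counts in the same order. Fitted without a filter, iBET gave a log2 fold change of 1.44 with Ova (SE 0.80, edgeR adjusted p = 0.171) and 1.31 with IC (SE 0.61, edgeR adjusted p = 0.101). A model on the opposite strand, Gm14207, shares 214 exon bases with Dll4, and the strand setting of the counting is not given in the sources used here, so reads of the pair may not be separated.

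Notch1 and Notch2 were the abundant receptors. The annotation places 541 exon bases of Gm42820 on the same strand as Notch2 and 1068 exon bases of 0610009E02Rik opposite Notch1, and these 2 models were not analysed here. Notch2 (chromosome 3, 98013527 to 98150361, GRCm38, plus strand) was at 561, 751, 761, 748 and 729 CPM in mice A to E in DMSO Ova and at 578, 622, 551, 559 and 662 CPM in DMSO IC. It was at 631, 622, 624, 669.6 and 620.1 CPM in iBET Ova and at 512, 521, 615, 537 and 676 CPM in iBET IC. The groups overlapped in every comparison, and mouse A was the low library of the DMSO Ova group. With DMSO, Notch2 fell with IC from 710.0 ± 83.9 to 594 ± 46.8 CPM (log2 fold change -0.26, SE 0.09, edgeR adjusted p = 0.0467, lower in 4 of 5 mice). This call was lost without mouse B, C, D or E, with the highest adjusted p of 0.273 without mouse C, where the log2 fold change was -0.20. It was -0.14 in mice A and B alone (edgeR adjusted p = 0.615) and -0.32 in mice C, D and E alone (edgeR adjusted p = 0.0203). With iBET the IC difference was -0.15 (SE 0.09, edgeR adjusted p = 0.323). The iBET contrasts of Notch2 were -0.17 with Ova (SE 0.09, edgeR adjusted p = 0.120) and -0.05 with IC (SE 0.09, edgeR adjusted p = 0.625).

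Notch1 (chromosome 2, 26457903 to 26516663, GRCm38, minus strand) was at 446, 579, 495, 392 and 373 CPM in mice A to E in DMSO Ova and at 457, 493, 296, 248 and 316 CPM in DMSO IC. In iBET Ova it was at 514, 456, 419, 364 and 322 CPM, and in iBET IC at 322, 327, 322, 225 and 331 CPM. The groups overlapped. The mean was lowest in iBET IC (305 CPM, against 362 CPM in DMSO IC), but the median was lowest in DMSO IC (316 CPM, against 322 CPM in iBET IC). The IC difference was -0.34 on the log2 scale with DMSO (SE 0.18, edgeR adjusted p = 0.200) and -0.44 with iBET (SE 0.18, edgeR adjusted p = 0.115), each lower in 4 of 5 mice. With the mouse as a block these differences were -0.36 (SE 0.11, edgeR adjusted p = 0.0155) and -0.44 (SE 0.11, edgeR adjusted p = 0.00680), and both passed. With DMSO the fall came to -0.12 in mice A and B alone and to -0.53 in mice C, D and E alone. The iBET contrasts were -0.14 with Ova (SE 0.18, edgeR adjusted p = 0.530) and -0.25 with IC (SE 0.18, edgeR adjusted p = 0.253). With IC, the sets of mice had opposite signs, -0.53 in A and B and 0.06 in C, D and E.

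Maml1 (chromosome 11, 50255634 to 50292311, GRCm38, minus strand), which joins the cut receptor and RBPJ and recruits histone acetyltransferases, varied little. Its group means were 49.8 ± 6.13 CPM in DMSO Ova, 46.4 ± 3.65 in DMSO IC, 48.1 ± 3.46 in iBET Ova and 40.8 ± 3.51 in iBET IC. The iBET IC libraries were at 38.2, 39.6, 40.3, 39.1 and 46.9 CPM in mice A to E, the last of them within the range of the other groups. With iBET, IC gave a log2 fold change of -0.24 (SE 0.08, edgeR adjusted p = 0.0741), which passed in the blocked fit (-0.24, SE 0.09, edgeR adjusted p = 0.0454, lower in 4 of 5 mice). The iBET contrast with IC was -0.19 (SE 0.08, lower in 5 of 5 mice, edgeR adjusted p = 0.0664), and that with Ova was -0.05 (SE 0.08, edgeR adjusted p = 0.613). Rbpj and Maml1 thus had different iBET values, -1.10 against -0.05 with Ova and -1.14 against -0.19 with IC; the difference between the genes was not tested.

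Hes1 (chromosome 16, 30064384 to 30067796, GRCm38, plus strand), a transcriptional repressor and the classic target of the Notch complex, did not pass the filter. Its counts summed over 5 libraries were 15 in DMSO Ova, 9 of them in mouse D, then 7 in DMSO IC, 3 in iBET Ova and 3 in iBET IC. It was at 0 in 6 of the 20 libraries. Fitted without a filter, the iBET contrast was -1.96 with Ova (SE 0.83, edgeR adjusted p = 0.0662) and -1.06 with IC (SE 0.92, edgeR adjusted p = 0.384). Neither passed the threshold, and the counts are too few to say more.

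**Figure D4:**
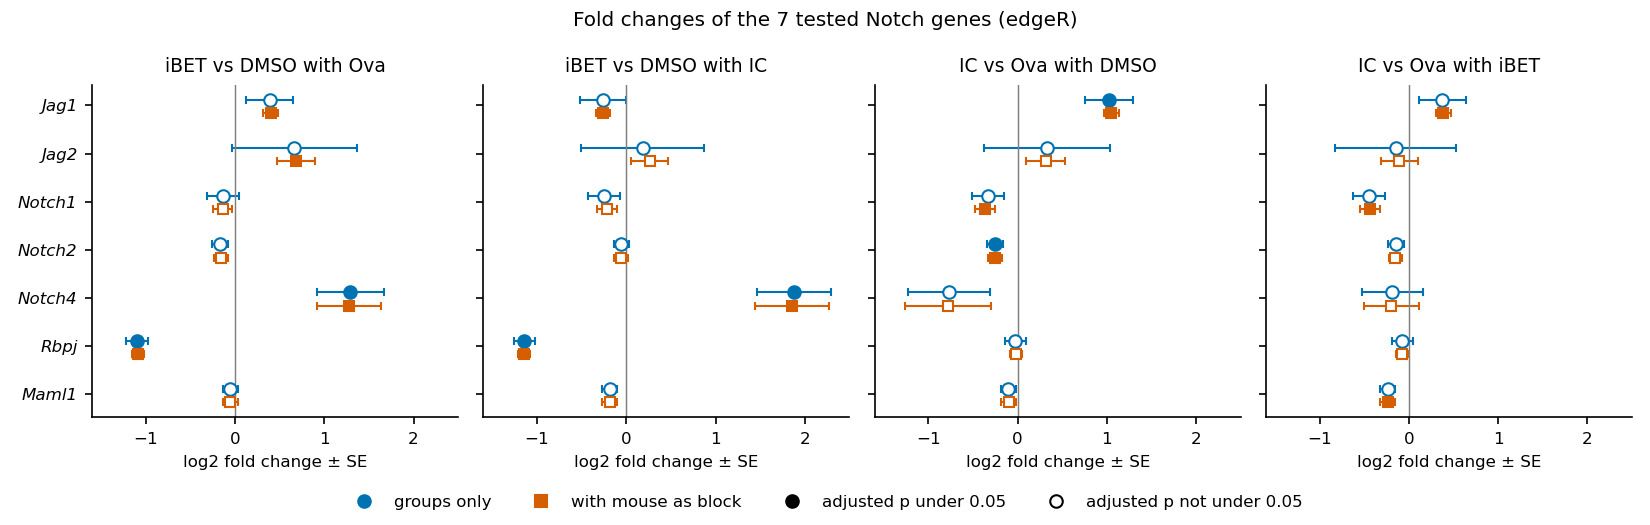
Log2 fold change ± SE (x axis) of the 7 tested Notch genes (rows) in the 4 contrasts, fitted with the groups only (blue circles) and with the mouse as a block (orange squares). Filled symbols passed an edgeR adjusted p of 0.05: Rbpj is at -1.10 and -1.14 and Notch4 at 1.29 and 1.88 in the iBET contrasts, and Jag1 at 1.02 for IC with DMSO.

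The wider pathway was described with a list of 84 genes by role, the 9 members included, of which 67 passed the filter. With iBET and Ova, 36 of 67 were called by edgeR (12 higher and 24 lower), against the background of 56.6%, and with IC 34 of 67 (11 higher and 23 lower), against 56.1%. The median log2 fold change of the list was -0.05 in both, and that of all tested genes was -0.00287 with Ova and -0.00537 with IC. Calls over all tested genes comprised 3449 rises and 3608 falls with Ova, and 3378 rises and 3612 falls under IC. With the mouse as a block, 44 of 67 were called with Ova (19 higher and 25 lower), against a blocked background of 68.7%. With IC the blocked fit called 41 of 67 (14 higher and 27 lower), against 68%. No test was made of the split between directions in the list against that of all genes.

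Enzymes that modify the receptors moved in both directions with iBET. Of 5 receptor glycosylation genes tested, 1 rose and 2 fell with each stimulus. That was 60% called, against 56.6% of all tested genes with Ova and 56.1% with IC. Lfng, a Fringe glycosyltransferase that alters which ligands a receptor answers to, rose from 88.3 ± 9.63 to 166 ± 28.9 CPM with Ova (edgeR adjusted p = 1.07e-05), a log2 fold change of 0.91, and by 0.73 with IC. Its relative Mfng fell by 1.36 with Ova and by 1.22 with IC on the log2 scale, and Poglut1, which adds O-glucose to the receptors, fell by 1.19 and by 1.15. Each of these 3 genes changed the same way in 5 of 5 mice.

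Of 6 tested ligand endocytosis genes, 4 fell with iBET under Ova and 3 under IC. Mib1, the main ubiquitin ligase that lets ligands be pulled into the sending cell, rose by 0.37 and 0.36. The share called was 83.3% with Ova and 66.7% with IC, against 56.6% and 56.1% of all tested genes. No test compared the share with that of all genes. Other genes that the list placed in this role, which was not tested here, fell with both stimuli. Neurl1b had log2 fold changes of -1.57 with Ova and -1.78 with IC, Neurl3 -1.43 and -1.10, and Mib2 -1.02 and -1.14. Among 10 cleavage genes, 5 fell with Ova (50%) and 4 with IC (40%), which is below the shares of all tested genes. None rose in the fit with groups only, and in the blocked fit Adam17 was called higher with Ova (0.15, edgeR adjusted p = 0.0155) and lower with IC (-0.14, edgeR adjusted p = 0.0176). The γ-secretase subunits Psenen (-0.45 with Ova and -0.66 with IC), Aph1a (-0.36 and -0.29) and Psen2 (-0.23 and -0.32) fell with both stimuli, as did Furin (-0.21 and -0.52), the protease that processes the receptor on its way to the surface.

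Of 12 tested negative regulators and turnover genes, 5 rose and 4 fell with Ova (75% called), and 3 rose and 4 fell with IC (58.3%). All tested genes were called at 56.6% with Ova and 56.1% with IC, and no role was tested against these shares. Deltex family members moved both ways: Dtx4 (-1.18 with Ova and -1.26 with IC), Dtx3l (-1.04 and -1.12) and Dtx3 (-0.55 and -0.59) fell, whereas Dtx2, picked out after its values were seen, rose (0.26 and 0.27). Fbxw7, the ubiquitin ligase subunit that marks the cut receptor for destruction, rose by 0.68 with Ova and by 0.72 with IC. In the nuclear complex, 4 of 9 tested genes fell with Ova (44.4% called), Rbpj among them, and with IC 4 fell and 1 rose (55.6%). The others that fell with both stimuli were the co-activator Maml2 (-0.69 and -0.65), the acetyltransferase Kat2a (-0.62 and -0.46) and Snw1 (-0.36 and -0.26). The 15 co-repressors split, with 4 rising and 4 falling under Ova (53.3% called), and 4 rising and 5 falling under IC (60%). Spen (0.85 and 0.92) and Tle1 (0.78 and 0.95) rose, and L3mbtl3 (-0.98 and -0.98) and Tle3 (-0.78 and -0.56) fell.

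Of the 9 listed target genes 3 passed the filter, of which 1 rose with Ova and none was called with IC. Of all tested genes, 56.6% and 56.1% were called in these comparisons. The target that rose was Nrarp, which also inhibits the pathway, named here after its values were seen. It had 1 to 10 counts per library in DMSO Ova and 7 to 19 in iBET Ova (log2 fold change 1.57, SE 0.49, higher in 5 of 5 mice, edgeR adjusted p = 0.00982), against 2 to 13 in DMSO IC and 8 to 15 in iBET IC (log2 fold change 0.40, SE 0.49, edgeR adjusted p = 0.511). With each stimulus its DMSO and iBET libraries overlapped in counts. Its median was 0.210 CPM in DMSO Ova, 0.244 in DMSO IC, 0.727 in iBET Ova and 0.429 in iBET IC. As with Notch4, the DMSO libraries alone would not have carried it past the filter. Its rise is therefore given as a value and not as support for a change in target genes. Of the 4 genes that the list placed under Notch2-dependent dendritic cell genes 2 passed the filter, and Esam and Cd4 did not. Whether these genes depend on Notch2 in the present cultures was not tested. Clec4a4, a lectin receptor of splenic dendritic cells, changed by -1.90 on the log2 scale under Ova (5 of 5 mice, edgeR adjusted p = 0.0186). Under IC it changed by -2.54 (4 of 5 mice, edgeR adjusted p = 0.00510). Its means were 4.69 ± 2.66 CPM in DMSO Ova and 1.25 ± 1.06 CPM in iBET Ova. With IC they were 3.60 ± 2.83 CPM in DMSO and 0.618 ± 0.416 CPM in iBET. The levels are low and the SDs large beside the means, so the fall is given as a value and not as support for a change in Notch2 signalling. Itgae was not called, at -0.54 under Ova (edgeR adjusted p = 0.563) and -0.26 under IC (edgeR adjusted p = 0.792).

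**Figure D5:**
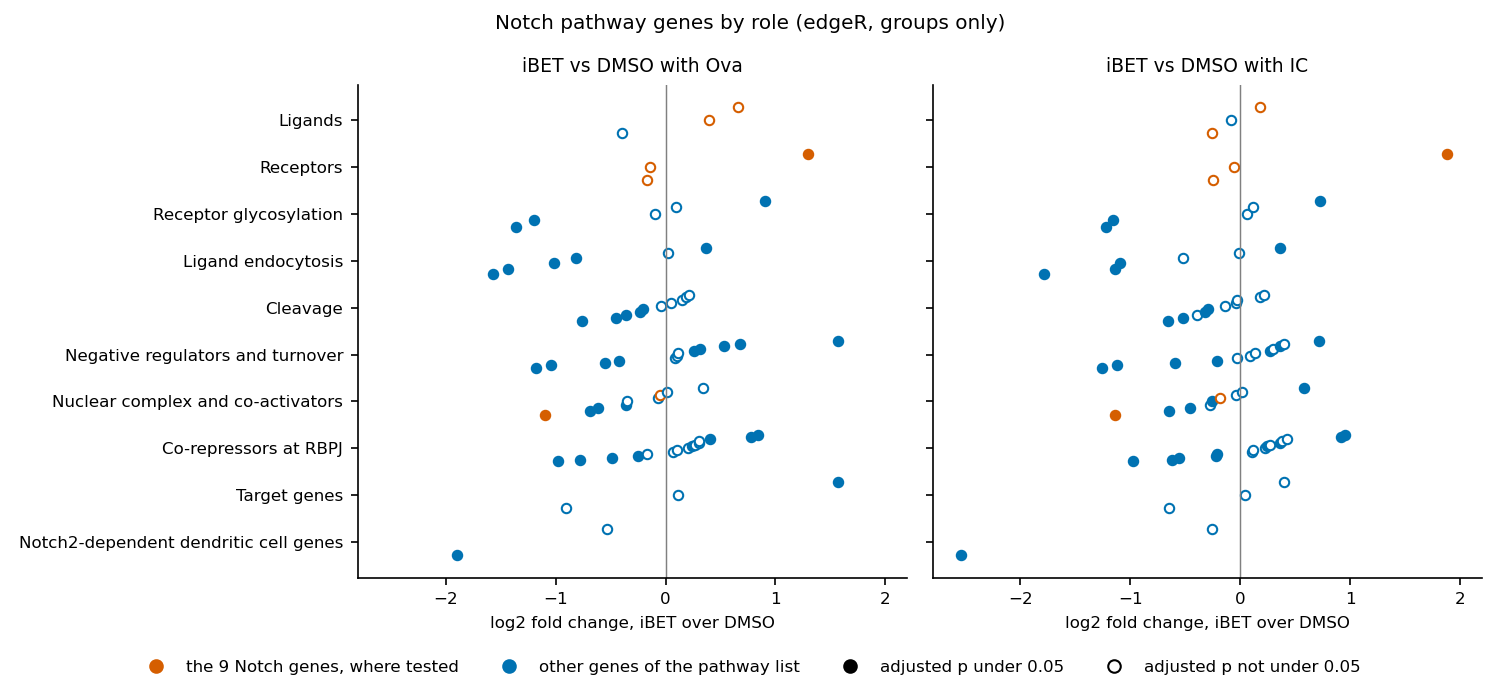
Log2 fold change of iBET over DMSO (x axis) with Ova and with IC for the 67 tested genes of the pathway list, by role (rows). Each point is a gene, orange for the 9 genes named at the start where tested and blue for the others, and filled points passed an edgeR adjusted p of 0.05. Rbpj is at -1.10 and -1.14, and Notch4 is at 1.29 and 1.88.

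IC with DMSO changed 21 of the 67 listed genes (6 higher and 15 lower), or 31.3%, against the background of 20.3%. With the mouse as a block, 30 of the 67 were called (9 higher and 21 lower, background 38.1%). Neither the share nor the split between directions was tested against that of all genes. Of the 19 called in the fit with groups only that are not members, 5 rose and 14 fell. Those that rose were the proteases Furin (log2 fold change 1.03) and Adam17 (0.42), the γ-secretase subunit Psenen (0.26), Dtx4 (0.47) and Numb (0.28), an adaptor that inhibits Notch. Furin rose from 234 ± 23.6 to 478 ± 45.3 CPM (edgeR adjusted p = 5.28e-08) and, with Jag1, had the largest rise among the called genes of the list. The genes that fell were the Fringe genes Lfng (-0.41) and Rfng (-0.31), the ligases Neurl2 (-0.85), Neurl3 (-0.69), Mib2 (-0.35) and Itch (-0.37), the co-activators Maml3 (-0.80), Kat2a (-0.43) and Kat2b (-0.30), the co-repressors Tle2 (-0.74), Tle1 (-0.38), Tle4 (-0.30) and Kdm5a (-0.28), and Hes6 (-0.37). With iBET, IC changed 11 of the 67 genes (3 higher and 8 lower, background 11.8%), and Furin was again higher (0.72). With the mouse as a block 26 of the 67 were called (7 higher and 19 lower, background 28.9%). In the blocked interaction 1 of the 67 was called (background 0.818%), and it was Jag1.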

How the data were processed

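RNA-seq of BMDCs was analysed for 20 libraries. As the methods and the processing notes of the submitters state, the authors trimmed the reads (Takara kit, per the labels) with Trim Galore, aligned them to mm10 with HISAT2 and counted them with featureCounts. The annotation, strand setting and treatment of reads shared by several genes are not given in the sources used here. The authors deposited raw counts per gene and library, and also a size-factor-normalised table, which was not used here.

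After filterByExpr and TMM scaling, 12465 genes entered the edgeR quasi-likelihood model (edgeR 4.0.16, R 4.3.3), whose single factor was the group. Calls used a Benjamini-Hochberg adjusted p of 0.05, and log2 CPM a prior count of 2. The interaction subtracts the iBET effect under Ova from that under IC. Standard errors of log2 fold changes were computed from the F statistic. The authors tested with DESeq2 and removed batch effects with sva, and the terms of their model are not given in the sources used here. The alternatives were a replicate block for the mouse, DESeq2 1.42.0 (Wald) with and without that block, other scalings, no filter, 3 surrogate variables of sva 3.50.0, the 10 libraries compared, mice left out and sets of mice. Fits were also run on simulated counts with known changes, for the iBET contrast with Ova only. The simulated counts held no differences between mice, so they cannot speak to the calls gained with the block.

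Libraries of the same animal deviated together, with a mean correlation of 0.524 over 30 pairs of libraries of one mouse and of -0.156 over 160 pairs of different mice, so the mouse letter of the labels pairs the samples. Each replicate is one animal. The total count per library (median 21764663) sets the precision of the counts, and errors are the SD between mice.

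The 9 members, the pathway list and the markers were chosen with earlier results of these data known. Members are named throughout. Other pathway genes are named where called for iBET with both stimuli (at most 4 per role, by size of change) or for IC with DMSO, and the 3 genes of most similar pattern are named for members called for iBET with both stimuli. Gene positions are those of GENCODE M21 (GRCm38), matched by symbol. The blocked fits of Jag1 without each mouse were added after the values were seen.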

Additional observations from a re-analysis of the deposited data

Results flagged for a closer look

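Of the 36 combinations of a member and a group of 5 libraries, 4 held a library whose gap to the nearest other, as a part of the whole range of the group, was above Dixon's 95% limit. Chance gives this in about 1 in 20 groups. Notch1 was at 225 CPM in mouse D of the iBET IC group, where the other 4 libraries were at 322 to 331 CPM. Notch2 was at 561 CPM in mouse A of the DMSO Ova group, with the others at 729 to 761 CPM, and at 669.6 CPM in mouse D of the iBET Ova group, with the others at 620.1 to 631 CPM. Maml1 was at 46.9 CPM in mouse E of the iBET IC group, with the others at 38.2 to 40.3 CPM.

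The effect of iBET on Jag1 differed in sign between the stimuli, higher in 5 of 5 mice with Ova and lower in 5 of 5 mice with IC. The interaction was -0.65 on the log2 scale without the mouse as a block (edgeR adjusted p = 1.00) and passed the threshold with it (-0.66, edgeR adjusted p = 0.0106).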

How the results depend on the processing

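The fall of Rbpj with iBET held in all 15 alternatives for each stimulus (log2 fold change -1.20 to -0.84 with Ova and -1.19 to -1.12 with IC). Notch4 was called for iBET in 13 of 14 alternatives with Ova, the exception being mice A and B only, and in 14 of 14 with IC. In the fit of the 10 libraries compared it did not pass the filter, and since it passes elsewhere through the iBET libraries, these calls are given as values and not as support. The rise of Jag1 with IC and DMSO was called in 14 of 15, the exception being the fit without mouse C. Over all tested members and comparisons, 450 alternative values kept direction and side of the threshold, 9 lost the call, 33 gained one and 18 changed sign.

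The members called for iBET with Ova numbered 2, against 4 with the mouse as a replicate block, in edgeR and in DESeq2, 5 with surrogate variables, and 1 in the 10 libraries compared or in mice A and B only. With mice left out the count was 2 to 3. For iBET with IC the count of 2 became 4 with surrogate variables, 1 in the 10 libraries compared and 4 in mice A and B only, and was 2 to 3 with mice left out. For IC with DMSO the count of 2 became 1 without the filter, in the 10 libraries compared and in mice A and B only, and was 0 to 2 with mice left out. For IC with iBET the count of 0 became 3 with the block (edgeR and DESeq2) or with surrogate variables and 2 with library size only, and was 0 to 1 with mice left out. In the interaction the count of 0 became 1 with the block by either tool. The pathway list rose from 11 to 26 calls for IC with iBET and from 0 to 1 in the interaction with the block. Apart from the calls given in the report, the block changed no other call of a member. In the blocked fits without each mouse, chosen after seeing the data, Jag1 was called in 5 of 5 for IC with DMSO, for IC with iBET and for iBET with Ova, and in 3 of 5 for iBET with IC and for the interaction. The causes of these changes were not tested.

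Changes of sign occurred at small log2 values that were called neither in the fit with groups only nor in the alternative. In mice C, D and E only they were 0.055 for Notch1 and 0.072 for Notch2 (iBET with IC), and 0.20 for Notch1, 0.076 for Rbpj and 0.020 for Maml1 (interaction). In mice A and B only they were -0.13 for Notch2 (interaction), 0.13 for Rbpj and 0.081 for Maml1 (IC with DMSO) and 0.041 for Maml1 (iBET with Ova). With surrogate variables they were 0.042 and 0.0036 for Rbpj (IC with DMSO and with iBET) and 0.015 for Maml1 (IC with DMSO). With single mice left out, the values that crossed 0 ranged from -0.039 to 0.37 for Jag2 and from -0.096 to 0.018 for Notch2 (iBET with IC), from -0.090 to 0.011 for Rbpj (IC with DMSO), and from -0.22 to 0.068 for Notch1 and -0.13 to 0.031 for Rbpj (interaction). Over the longest transcript in place of all exons, Rbpj was at 80.1 and Notch1 at 40.6 CPM per kb.

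Depth limits Dll4, Hes1, Notch4 and Jag2, which had at most 7, 9, 17 and 44 counts in a library.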
